A study of Mus musculus with 38 samples.

Results

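The genes described here lie on mouse chromosome 8 and were read out in 5 CD8 T cell clones, 1 of which, sAg3, carried higher levels of most of them. The rule took probe sets that name a single gene on chromosome 8, with a mean log2 level above 8 over all 38 arrays, and kept the brightest probe set of each gene. It found 398 genes, of 954 chromosome 8 genes measured at any level and of 7106 genes above the same minimum on all chromosomes. The rule left out 1 gene by name. By the gene table, 393 of the 398 are protein coding, 2 are microRNA genes, and a transcribed pseudogene, a long noncoding RNA and a ribosomal RNA make up 1 each. Chromosome 8 was selected on the sAg3 levels themselves, so the differences between sAg3 and the other clones are given as a description, with no test.

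A chromosome carries many unrelated genes, for integrins, transcription factors, proteasome subunits or mitochondrial proteins, that share little beyond the DNA molecule they sit on. The number of copies of a gene in a cell is called its dosage, and in cultured cells that gain or lose a chromosome the transcripts of many of its genes are known to shift by a modest factor in 1 direction. T cell clones are single cells grown out over many rounds of restimulation. DNA was not measured here, and RNA levels do not give copy number.

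All groups came from mouse CD8 T cell clones, each grown from 1 cell, so each clone is a single example of its kind. Clones sAg1 and sAg3 are labelled IL13+, 8uvmo-2 and 8uvmo-3 IL13-negative (Tc1 clones in the series design), and CD8bm1 is an alloreactive CD8 clone. Each clone was measured dormant, without stimulation, and activated, by anti-CD3 antibody (145-2c11, 0.5 ug/ml) fixed to the culture surface for 14 h. There were 4 arrays per group, except 3 in dormant sAg1 and 3 in dormant sAg3, and 100 ng of total RNA went into each. The labels do not say whether the arrays of a group were separate cultures, so their spread may be technical. Array medians were 6.58 to 6.70 in the dormant and 7.01 to 7.09 in the activated state, and arrays of 1 group correlated at 0.986 to 0.998. The T cell markers Cd3d, Cd3e, Cd3g, Cd247, Cd8a and Cd8b1 had group means of 9.17 or more in all 10 groups, while Cd2 was below 7 in 4 groups. The B cell markers Cd79a, Cd79b and Ms4a1 and the macrophage markers Csf1r, Adgre1 and Fcgr1 were below 7 in all 10. Other markers were not: Lyz2 reached 9.26 in dormant sAg1, Itgax 11.20 in dormant and 11.37 in activated sAg3, and Cd68 ran from 7.81 to 10.33. Of the NK cell markers, Ncr1 was below 7 in all 10 groups and Klrb1c reached 8.2 in dormant 8uvmo-2. Of the fibroblast markers, Pdgfra was below 7 in all 10 and Col1a2 in 3, and Col1a1 ran from 7.37 to 8.03. The part of any of these markers in the results below was not tested. In bulk RNA, a smaller share of cells that make a transcript and less of it in every cell cannot be told apart.

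The promoters of 6 of the genes are printed as examples. They precede genes that were higher in sAg3, some by far more than the median gene, and genes that were not. Among them is the promoter of Itgb1, a gene nearly as high in dormant CD8bm1 as in dormant sAg3. Each is the 250 bases before the gene's start in the RefSeq table for GRCm38.p6, read 5′ to 3′ on the gene's own strand. Only the first start listed for a gene was used, here and in the shares below, so other starts are not shown. Slc35e1 (chr8:72492615-72492864, minus strand), Itgb1 (chr8:128685404-128685653, plus strand) and Tomm20 (chr8:126945922-126946171, minus strand) were all higher in sAg3, and capitals mark the GC box GGGCGG or its complement CCGCCC, letters bound by Sp1-type factors.
Slc35e1: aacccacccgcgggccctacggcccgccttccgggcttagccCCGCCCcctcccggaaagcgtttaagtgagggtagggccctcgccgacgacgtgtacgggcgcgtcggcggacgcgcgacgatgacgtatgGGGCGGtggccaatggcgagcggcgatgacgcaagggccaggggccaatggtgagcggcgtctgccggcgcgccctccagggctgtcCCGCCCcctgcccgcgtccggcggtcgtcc
Itgb1: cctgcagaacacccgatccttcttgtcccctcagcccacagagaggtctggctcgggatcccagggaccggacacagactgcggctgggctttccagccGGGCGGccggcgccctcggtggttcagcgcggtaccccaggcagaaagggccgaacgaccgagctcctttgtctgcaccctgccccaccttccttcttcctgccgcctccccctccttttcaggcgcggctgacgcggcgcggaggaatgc
Tomm20: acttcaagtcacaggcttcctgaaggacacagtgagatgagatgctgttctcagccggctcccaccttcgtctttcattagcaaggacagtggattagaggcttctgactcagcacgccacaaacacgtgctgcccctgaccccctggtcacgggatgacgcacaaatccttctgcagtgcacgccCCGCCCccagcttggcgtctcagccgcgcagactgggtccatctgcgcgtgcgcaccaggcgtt
For Irf8 (chr8:120736108-120736357, plus strand), an interferon response factor that was higher in dormant sAg3 than elsewhere and rose in all clones on activation, capitals mark 2 matches to TTCNNNGAA, the letters of an interferon-gamma activated site (GAS), bound by STAT factors.
Irf8: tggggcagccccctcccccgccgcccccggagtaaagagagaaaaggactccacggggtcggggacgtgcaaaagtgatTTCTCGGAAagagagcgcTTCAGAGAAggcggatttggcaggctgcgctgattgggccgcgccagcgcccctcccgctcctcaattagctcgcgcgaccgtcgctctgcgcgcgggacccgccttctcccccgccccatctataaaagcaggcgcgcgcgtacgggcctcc
Mt2 (chr8:94172368-94172617, plus strand) and Mt1 (chr8:94178839-94179088, plus strand), neighbouring metallothionein genes, are shown because Mt2 was among the lowest genes of sAg3 and Mt1 was not. Capitals mark the letters of metal response elements, TGCACNC or TGCGCNC and their complements. Elements outside these 250 bases are not shown, so the marked stretches are not a count for the whole gene.
Mt2: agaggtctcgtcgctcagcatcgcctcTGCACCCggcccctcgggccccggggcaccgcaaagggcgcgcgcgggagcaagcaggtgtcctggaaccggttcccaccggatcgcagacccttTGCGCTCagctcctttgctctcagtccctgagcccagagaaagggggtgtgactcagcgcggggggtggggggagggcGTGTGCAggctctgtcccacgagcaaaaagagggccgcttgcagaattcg
Mt1: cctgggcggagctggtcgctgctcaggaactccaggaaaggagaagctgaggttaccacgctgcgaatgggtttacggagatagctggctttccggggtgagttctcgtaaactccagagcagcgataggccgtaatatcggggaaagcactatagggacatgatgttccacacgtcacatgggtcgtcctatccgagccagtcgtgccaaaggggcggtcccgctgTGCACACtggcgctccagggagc

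Promoters of 290 of the 398 genes were matched. The GC box stood in 64.5% of them, against 62.7% of the 5513 matched promoters of bright genes on other chromosomes and 32.9% of all 27025 promoters of the table. For the metal response element, which can overlap other motifs, the shares were 35.2%, 31.8% and 21.3%, and for the GAS letters 6.21%, 5.88% and 7.18%. CCAAT (or ATTGG) was found in 35.9%, 36.5% and 34.5%, and TATAAA (or TTTATA) in 6.21%, 5.66% and 13.0%. Both strands were searched. The median GC content was 60.8% in the chromosome 8 promoters and 60.4% in those of bright genes elsewhere, against 52% over the table. In these letters the chromosome 8 promoters were much like those of other bright genes, and a match is a description, not a binding site.

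In sAg3, the median chromosome 8 gene lay 0.32 log2 units above the other clones in the dormant state, a fold of 1.25, and 0.25 above them after activation, a fold of 1.19. This shift is the clone's mean log2 level minus the median of the other 4 clone means, gene by gene, in the same state. Between the quartiles the dormant shifts ran from 0.096 to 0.585 and the activated ones from 0.079 to 0.528. Above 0 lay 334 of the 398 genes (83.9%) in dormant and 326 (81.9%) in activated sAg3. The same clone's 6708 bright genes on other chromosomes had a median of -0.07 dormant and -0.10 activated, with 42.1% and 39.3% above 0. Array by array, the median over the chromosome 8 genes was 0.286 to 0.363 on the 3 dormant sAg3 arrays (0.327 ± 0.039, SD) and 0.244 to 0.271 on the 4 activated ones (0.257 ± 0.012, SD). The other 8 groups had no array outside -0.167 to 0.053, so the sAg3 arrays did not overlap them. As the shift of the whole chromosome chose it, this separation carries no test.

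Chromosome 8 had the highest median of sAg3's chromosomes in both states, with chromosome 12 next at 0.225 dormant and 0.236 activated. The other 18 chromosomes were at 0.02 or below in dormant and below 0 in activated sAg3. On the low side, chromosome 17 stood at -0.287 and chromosome 1 at -0.263 in dormant sAg3, and both stayed low after activation, at -0.235 and -0.283. Shifts of this size were not limited to sAg3 or to chromosome 8. In clone 8uvmo-3, chromosome 15 (290 genes) lay 0.276 above the other clones dormant and 0.303 activated, and chromosome 10 at 0.271 and 0.286. Clone 8uvmo-2 stood at 0.294 and 0.324 on chromosome 1 and at 0.315 and 0.241 on chromosome 17, and CD8bm1 at 0.239 and 0.176 on chromosome 1. As each shift is set against the other clones, these high values bear on the low sAg3 values there, and how far was not tested. Clone sAg1 shared the chromosome 12 shift of sAg3, at 0.249 and 0.235.

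**Figure D1:**
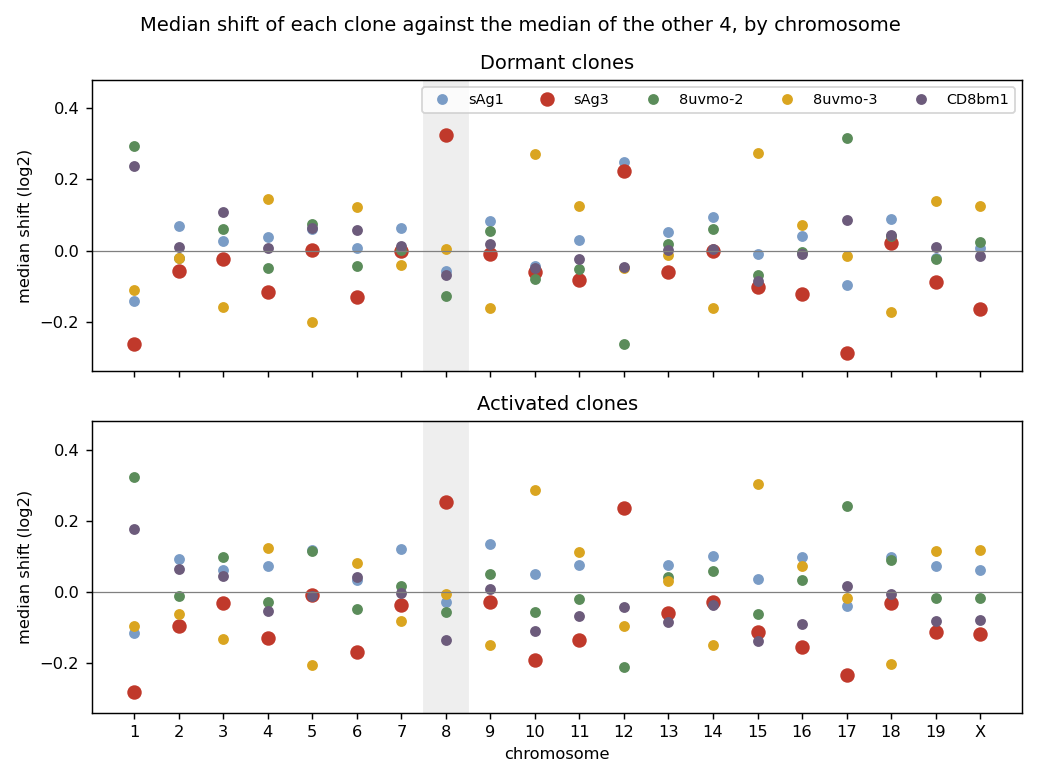
Median shift on the log2 scale (vertical axis) of the bright genes of each chromosome (horizontal axis) for each clone against the median of the other 4 clones, dormant above and activated below; each point is 1 clone and the grey band marks chromosome 8. The sAg3 point on chromosome 8 is at 0.32 dormant and 0.25 activated, while the other 4 clones lie between -0.14 and 0.01 there.

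The shift ran along the whole chromosome. In 12 blocks of 33 or 34 consecutive genes, the sAg3 median was above 0 in 12 of 12 blocks in both states. The lowest dormant block was at 0.157 (block 8, N4bp1 to Cfap20) and the highest at 0.442 (block 2, Mrps31 to Wrn). After activation the lowest was 0.189 (block 10, Pla2g15 to Kars) and the highest 0.375 (block 11, Terf2ip to Piezo1). No other clone was above 0 in more than 6 of the 12 blocks in either state. A running median over 31 consecutive genes gave 368 windows, and sAg3 was above 0 in all 368 of them, between 0.116 and 0.494 dormant and between 0.124 and 0.454 activated. No end of the chromosome or internal stretch returned to 0 at this resolution. Shorter stretches did: the 6 genes nearest to Podnl1 had medians of -0.13 dormant and -0.16 activated, and those nearest to Mt2 0.05 and -0.05. Around the other genes with the 10 largest and 6 smallest shifts, the nearest genes had medians above 0 in both states. The low block 8 holds the metallothionein genes and Cpne2, described below.

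**Figure D2:**
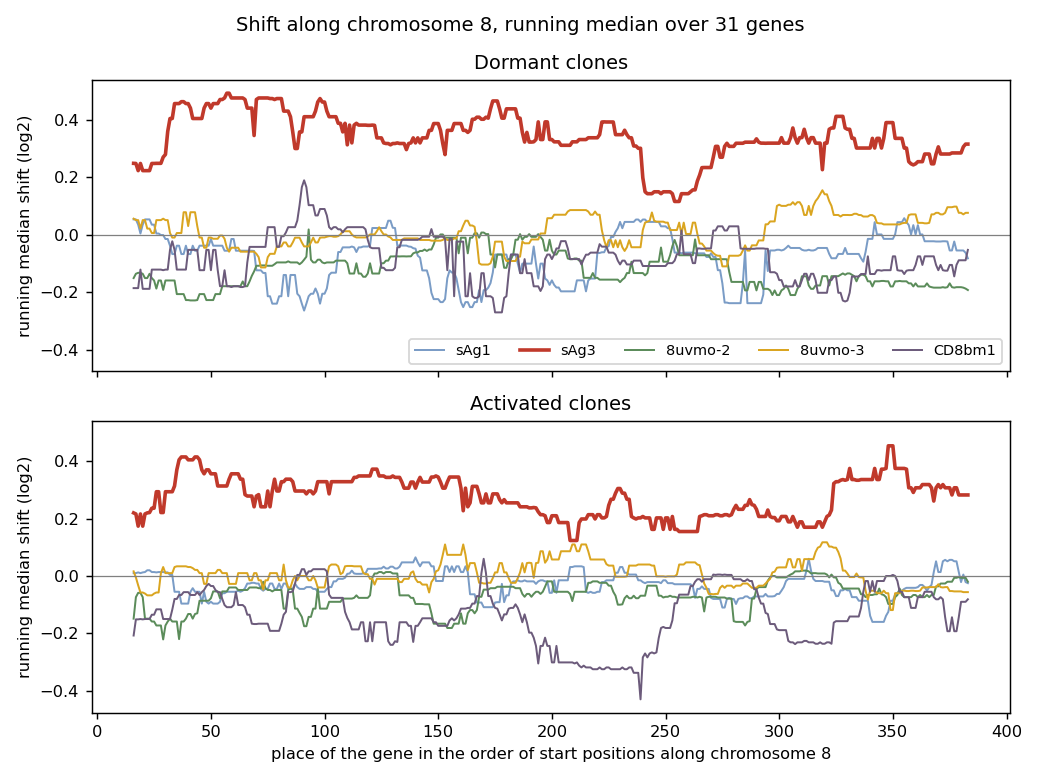
Running median over 31 genes of the log2 shift of each clone (vertical axis) against the order of the 398 genes along chromosome 8 (horizontal axis), dormant above and activated below; each line is 1 clone. The sAg3 line stays above 0 in all 368 windows of both states, and each of the other 4 lines falls below 0 in part of its windows.

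Against each clone alone the picture was similar. The median difference of sAg3 from sAg1 was 0.34 dormant and 0.23 activated, from 8uvmo-2 it was 0.39 and 0.27, from 8uvmo-3 0.24 and 0.22, and from CD8bm1 0.34 and 0.35. On other chromosomes the same median differences lay between -0.13 and -0.06. In dormant cells 299 to 329 of the 398 genes were higher in sAg3 than in the single other clone, and in activated cells 295 to 336. Of the 5 clones, sAg3 was the highest for 233 genes (58.5%) dormant and 239 (60.1%) activated, against 15.3% and 18.3% of bright genes on other chromosomes. It was the highest in both states for 179, a count with no share from other chromosomes beside it.

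Most single genes moved little. A shift between 0 and 1 was found for 307 genes dormant and 303 activated, while 27 and 23 reached 1 or more and 7 and 6 lay at -1 or below. Without the genes at 1 or beyond in either direction, the median was 0.31 dormant (364 genes) and 0.24 activated (369 genes). Among genes whose other 4 clone means lay within 0.5 of each other, 160 of 180 were above 0 in dormant sAg3 with a median of 0.32, and 205 of 237 in activated sAg3 with 0.24. On other chromosomes such evenly expressed genes had medians of -0.06 and -0.10. In the dormant state the shift was larger for brighter genes: the median was 0.249 for genes with a mean of 8 to 9, 0.338 for 9 to 10, 0.398 for 10 to 11 and 0.471 above 11. Bright genes of sAg3 on other chromosomes showed the same order, at -0.125, -0.085, -0.021 and 0.043, so that the distance between both was 0.374, 0.424, 0.419 and 0.427. Activated values on chromosome 8 were 0.213, 0.316, 0.284 and 0.287, and elsewhere -0.114, -0.116, -0.088 and -0.014. Chromosome 8 genes below the minimum, with means of 7 to 8, had medians of 0.0825 and 0.121. The rule's threshold separated Zfp703, Tma16 and Klhl26 just inside (dormant shifts 0.48, 0.57 and -0.23) from Sox1, Mir3107 and Irs2 just outside (0.19, 0.09 and -0.21). Only 5 of the 398 had a mean of 8 or less over the arrays of the other 4 clones.

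All 3 dormant sAg3 arrays were above all 15 dormant arrays of the other clones for 124 of the 398 genes, where the share over all 7106 bright genes was 7.75%, and below them for 2, where the share was 8.46%. After activation 132 were above (9.08% of bright genes) and 8 below (14.1%). In both states 70 genes were above, 17.6% of the 398, and 0 below. Of all bright genes 279 were above (3.93%) and 333 below. The 70 were spread from place 4 to place 387 in the gene order, with 3 to 7 in each of the 12 blocks. Their medians were 0.63 dormant and 0.68 activated. The following examples were picked by hand. They include Slc25a4, the mitochondrial ADP/ATP carrier, Ndufa13 and Ndufb7 of respiratory complex I, the ribosomal protein Rpl13, the coatomer subunit Cope, the retromer subunit Vps35, the lysosomal acid ceramidase Asah1 and the adenine salvage enzyme Aprt. Immune genes among them are Cbfb, the partner of the Runx factors, Tradd, an adaptor of the TNF receptor, Tnfsf13b, which encodes the B cell survival factor BAFF, and Psmb10, an immunoproteasome subunit.

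For 3 of the 70 the levels were as follows. Slc25a4 was at 13.02, 12.98 and 12.98 on the dormant sAg3 arrays, against a range of 12.15 to 12.67 with a median of 12.48 on the 15 others. On the activated sAg3 arrays it was at 12.82, 12.79, 12.71 and 12.76, against 11.71 to 12.52 with a median of 12.27 on 16 others. The sAg3 arrays of this gene thus lay close together and just above the rest. Fkbp8, an anti-apoptotic chaperone of the mitochondrial surface, was at 11.83, 11.89 and 11.70 in dormant sAg3 against 10.91 to 11.20 (median 11.05), and at 12.07, 12.12, 12.15 and 12.07 in activated sAg3 against 11.14 to 11.61 (median 11.27). Prdx2, a peroxide-removing enzyme, was at 12.20, 12.11 and 12.09 against 11.33 to 11.92 (median 11.52), and at 12.10, 12.22, 12.09 and 12.22 against 10.99 to 11.78 (median 11.32). None of these sAg3 arrays overlapped the others, and Fkbp8 left the widest gap.

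A shift of at least 1 by itself makes sAg3 likely to be the highest clone. The next counts thus carry no test, and no share on other chromosomes stands beside them. Of the genes with such a shift, sAg3 was the highest clone for 22 of 27 dormant and 21 of 23 activated. Of the 70 genes above all other arrays in both states, 10 had a shift of at least 1 in both. They were Slc35e1, Man2b1, Arhgef7, Tnfsf13b, Exoc3l, Mphosph6, Slc38a8, Kbtbd11, Adgrg3 and Galnt7. Genes elsewhere were not counted at that size. At any size, 279 of all bright genes (3.93%) were above all other arrays in both states. Slc35e1, a nucleotide-sugar transporter family member, was at 11.95, 12.10 and 11.91 in dormant sAg3 and at 9.84 to 10.54 (median 10.29) on the other dormant arrays, a shift of 1.66. In activated sAg3 it was at 11.91, 11.99, 12.08 and 12.04, against 10.22 to 11.06 (median 10.42), a shift of 1.59. Man2b1, the lysosomal alpha-mannosidase, was at 11.54, 11.59 and 11.57 against 10.06 to 10.94 (median 10.36) dormant and at 11.77, 11.69, 11.77 and 11.74 against 9.24 to 10.23 (median 9.88) activated. Its shift was 1.15 and 1.87. Arhgef7, an exchange factor for Rac and Cdc42 (beta-PIX), was at 10.52, 10.55 and 10.51 against 8.00 to 8.84 (median 8.74) dormant and at 10.57, 10.29, 10.49 and 10.36 against 8.81 to 9.38 (median 9.18) activated, with shifts of 1.83 and 1.28. None of these 3 overlapped the other clones on any array. Their 6 nearest genes on both sides had medians of 0.26 and 0.05 for Slc35e1, 0.43 and 0.24 for Man2b1 and 0.20 and 0.14 for Arhgef7, so these genes stood above their neighbourhood. Tnfsf13b was at 11.02 to 11.14 in dormant and 10.34 to 10.50 in activated sAg3. It came closer to other clones, whose highest arrays reached 10.46 (sAg1) and 10.31 (CD8bm1).

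The very largest shifts belonged to genes that were switched between high and low among the clones, and sAg3 was not alone on the high side. Itgb1, the integrin beta 1 chain (CD29) that pairs with alpha chains to bind matrix and VCAM-1, is the last of the 398 in gene order. It was at 12.69, 12.56 and 12.59 in dormant sAg3 and at 12.48, 12.50, 12.61 and 12.41 in CD8bm1. In the other 3 clones it was at 7.23, 6.93 and 6.67 (sAg1), 7.50, 7.13, 6.58 and 7.08 (8uvmo-2) and 7.95, 7.55, 7.45 and 7.26 (8uvmo-3). After activation sAg3 was at 11.76 to 11.98 and CD8bm1 at 11.18 to 11.31, with the other 3 clones at 5.72 to 8.35. The shifts of 5.30 and 5.38 thus measure sAg3 and CD8bm1 against the rest, and the sAg3 mean exceeded the CD8bm1 mean by 0.11 dormant and 0.61 activated. The 3 genes before Itgb1 in the order, Irf2bp2, Tomm20 and Rbm34, had a median shift of 0.57 dormant and 0.13 activated.

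Clgn, which encodes calmegin, a calnexin-like chaperone best known from the testis, was high in sAg3 (12.12, 12.03 and 12.09 dormant), in 8uvmo-3 (12.10, 12.03, 11.97 and 11.99) and, lower, in sAg1 (10.60, 10.66 and 10.73). In 8uvmo-2 and CD8bm1 it was at 5.12 to 5.58, near background. Exoc3l, related to an exocyst subunit, was at 10.26 to 10.59 in dormant sAg3 and at 9.49 to 10.11 in CD8bm1, with the other 3 clones at 6.44 to 7.44. Enpp6, a choline phosphodiesterase, was at 10.40 to 10.56 in dormant sAg3 but higher still, at 11.90 to 12.12, in CD8bm1. Plcg2, the phospholipase C gamma 2 of B cell and myeloid receptor signalling, was at 10.85 to 11.01 in dormant sAg3, 9.87 to 10.51 in 8uvmo-2 and 5.84 to 6.21 in CD8bm1. In activated cells Plcg2 of sAg3 (10.09 to 10.29) overlapped 8uvmo-2 (9.57 to 10.22). Of the 10 largest shifts, sAg3 was the highest clone in both states for 9, Enpp6 being the exception, but its margin over the next clone was often small. The margin exceeded 1 in both states for Slc35e1 (1.55 and 1.11) and Arhgef7 (1.72 and 1.14), and in a single state for Man2b1 (1.68 activated), Irf8 (2.04 dormant) and Exoc3l (1.28 activated).

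Irf8 drives monocyte and dendritic cell fates and is induced in activated T cells. It was at 10.27, 10.14 and 10.08 on the dormant sAg3 arrays and at 6.50 to 8.52 (median 7.33) on the 15 others, a shift of 2.71. After activation sAg3 was at 11.34, 11.49, 11.68 and 11.65, and the others at 10.26 to 11.37 (median 10.94), a shift of 0.68. The dormant groups were well apart, and the activated ones overlapped at the edge with 8uvmo-2. Of 6 macrophage and dendritic cell markers, Csf1r, Lyz2, Adgre1 and Fcgr1 were at 4.59 to 5.76 in dormant sAg3, while Cd68 was at 9.29 and Itgax at 11.20. Their part in the Irf8 level was not tested.

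**Figure D3:**
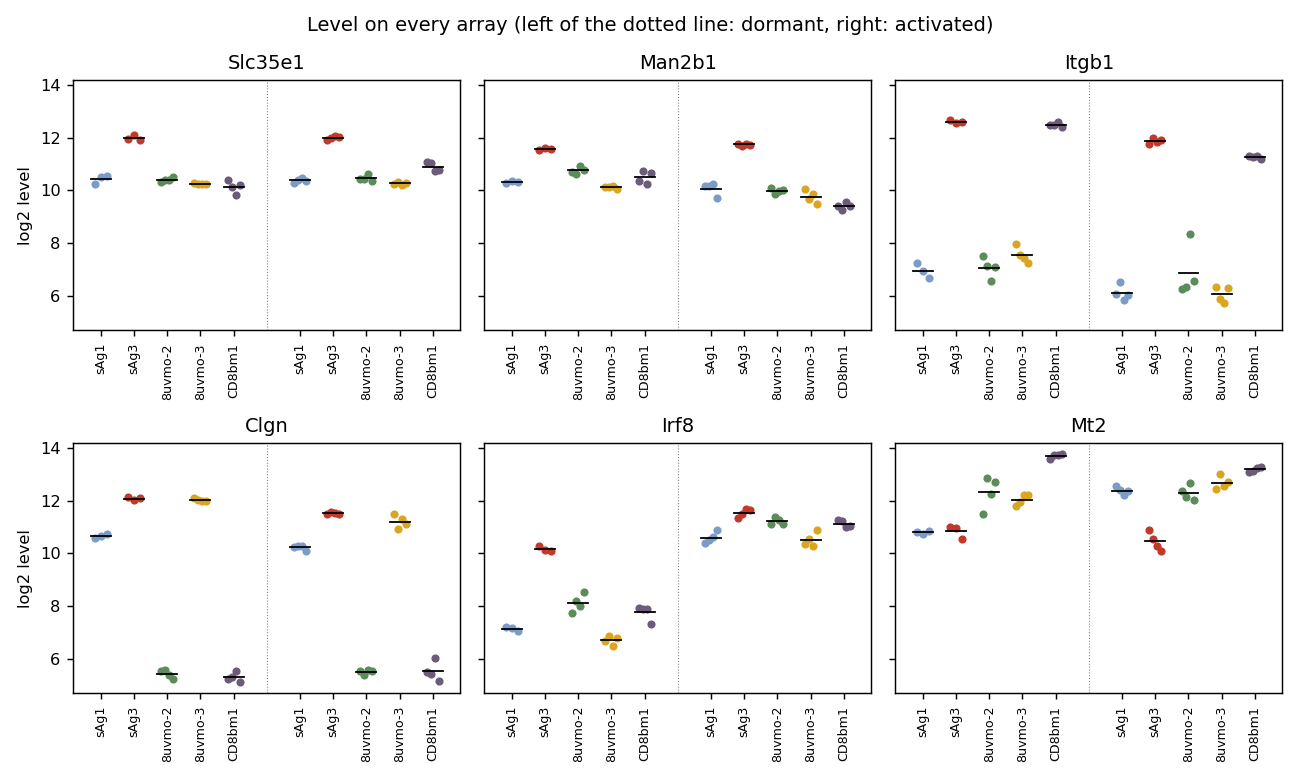
Log2 level (vertical axis) of 6 chromosome 8 genes on each array, grouped by clone (horizontal axis), dormant to the left and activated to the right of the dotted line; points are arrays and bars group means. Slc35e1 and Man2b1 are highest in sAg3 alone, Itgb1 is high in sAg3 and CD8bm1, Clgn in sAg3, 8uvmo-3 and sAg1, and Mt2 is lowest in sAg3 after activation.

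A small number of genes went against the chromosome. Mt2, a metallothionein that binds zinc and copper, was at 11.01, 10.96 and 10.56 in dormant sAg3, against 10.72 to 13.76 (median 12.22) elsewhere, a shift of -1.34. Dormant sAg1, at 10.82, 10.72 and 10.85, was as low. In activated sAg3 Mt2 was at 10.90, 10.54, 10.28 and 10.10 against 12.02 to 13.28 (median 12.56), a shift of -2.07 with no overlap. Its neighbour Mt1 had shifts of -0.06 and -0.04. The metallothionein genes are similar in sequence, and whether their probe sets read each other's transcripts was not tested. Piezo1, the mechanically gated ion channel, was at 7.34 to 7.54 dormant and 7.75 to 8.16 activated in sAg3, levels that overlapped sAg1, while the other 3 clones were at 8.63 or more dormant and 9.56 or more activated. Cpne2 (copine 2, shifts -1.81 and -1.14), Podnl1 (a podocan-like matrix protein, -1.56 and -0.99), Eif4ebp1 (the translation inhibitor 4E-BP1, -1.30 and -1.14) and Dctd (dCMP deaminase, -1.21 and -1.20) complete the 6 lowest. For Cpne2, Podnl1 and Dctd the sAg3 arrays lay inside the range of the others in both states, save 1 activated Cpne2 array at 7.10 against a lowest other of 7.15. Eif4ebp1 was below the others in the dormant state alone (7.60 to 8.05 against 8.10 to 10.26).

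Shifts were alike in the dormant and the activated state for most genes. Above 0 in both states were 294 of the 398 (73.9%), below 0 in both 32, and 72 had different signs. On other chromosomes 27.2% were above 0 in both and 45.7% below 0 in both. Pearson's r between the dormant and activated shifts was 0.75 and Spearman's rho 0.55 across the 398 genes, which are not independent replicates. Over the 6708 bright genes elsewhere r was 0.72 and rho 0.60, so agreement between states was not particular to chromosome 8. Genes that differed include the AP-1 subunits Junb (1.17 dormant, 0.03 activated) and Jund (1.15 and 0.07) and the amino acid transporter Slc7a5 (1.81 and -0.17).

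**Figure D4:**
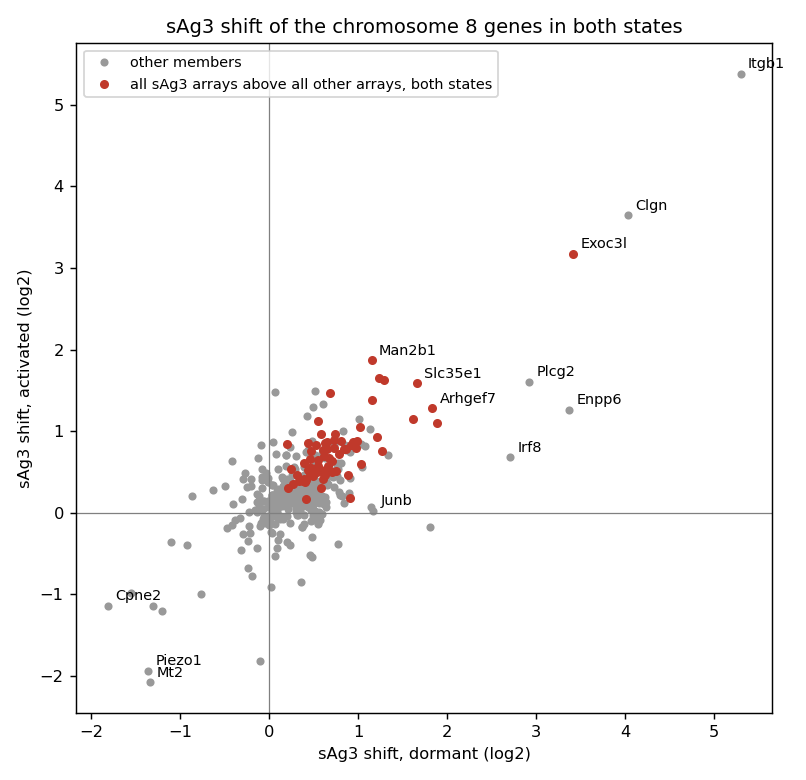
Shift of sAg3 in the dormant (horizontal axis) and activated (vertical axis) state on the log2 scale for the 398 chromosome 8 genes; each point is 1 gene, and red points are the 70 genes for which all sAg3 arrays were above all other arrays in both states. Most points lie in the upper right quadrant near the centre (294 of 398 above 0 in both states), with Itgb1 farthest out at 5.30 and 5.38.

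Over all 398 genes 83.9% were above 0 in dormant and 81.9% in activated sAg3, with medians of 0.32 and 0.25. Grouped by role, of 24 genes of folding, degradation and vesicle traffic 23 were above 0 dormant (median 0.50) and 21 activated (0.36). Calreticulin (Calr), the calcium-binding chaperone of the endoplasmic reticulum and the brightest of them, was at 13.18 to 13.24 in dormant sAg3 against 11.99 to 12.82, and at 13.43 to 13.49 in activated sAg3 against 13.05 to 13.36. Its shift was 0.91 dormant and 0.19 activated. The signal peptidase subunit Spcs3 had shifts of 0.56 and 0.02, Herpud1 of the ER degradation machinery 0.62 and 0.11, Fkbp8 0.74 and 0.79, and Cope 0.63 and 0.52. The single member below 0 in the dormant state was Gabarapl2 (-0.49), an autophagy protein.

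Of 16 mitochondrial genes 15 were above 0 dormant (median 0.47) and 15 activated (0.37), and 14 in both states. Among the brightest, the transaminase Got2 had shifts of 0.66 and 0.35, the outer membrane import receptor Tomm20 0.62 and 0.19, the channel Vdac3 0.36 and 0.22, and the cytochrome oxidase subunit Cox4i1 0.44 and 0.77. Coq9, of ubiquinone synthesis, was the exception when dormant (-0.13), and the mitochondrial cysteinyl-tRNA synthetase Cars2 when activated (-0.006). In RNA processing and translation 26 of 28 were above 0 dormant (median 0.31) and 17 of 28 activated (0.12). The brightest were Rpl13 (0.21 and 0.31), the ribosome recycling factor Abce1 (0.47 and 0.04), the deadenylase scaffold Cnot1 (0.27 and 0.21), the lysyl-tRNA synthetase Kars (0.03 and 0.34) and the RNA polymerase II subunit Polr2c (0.16 and -0.08). In metabolism and redox 13 of 16 were above 0 dormant (median 0.52) and 10 of 16 activated (0.25), among them Prdx2 (0.65 and 0.87) and Cyba, the p22phox subunit of NADPH oxidase (0.24 and 0.37). Of 4 cell death genes 3 were above 0 dormant and 4 activated, with medians of 0.25 and 0.23.

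Genes of T cell signalling and the cell surface varied more. Of 14, 9 were above 0 dormant (median 0.18) and 13 activated (0.42). The brightest were the lipid phosphatase Inpp4b (0.83 and 0.996), Nlrc5, which drives MHC class I genes (-0.03 and 0.49), the tethering protein Bst2 (0.09 and 0.19), the IL-27 receptor chain Il27ra (-0.77 and -0.998) and the deubiquitinase Cyld (-0.08 and 0.31). Of 21 transcription factors 14 were above 0 dormant (median 0.30) and 14 activated (0.11), and 11 of them in both states. Next to Jund and Irf8, they hold Nacc1 (0.39 and -0.14), the pocket protein Rbl2 (-0.09 and 0.84), the chromatin protein Hmgb2 (-1.10 and -0.36) and Nfatc3 (-0.30 and 0.17). The replication, cell cycle and DNA repair genes had the lowest dormant median of the 8 lists, 0.05 with 11 of 17 above 0, and 0.21 with 13 of 17 when activated. Their values spread with the origin licensing factors: Orc6 was at 0.76 and 0.46, Mcm5 at 0.21 and -0.36, and Cdt1 at -0.92 and -0.39. The same shares over all 398 genes were 83.9% and 81.9%.

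Complexes whose subunits are spread over the genome allowed chromosome 8 genes to be set beside their partners in the same arrays. The 3 LSm ring subunits on chromosome 8, Lsm1, Lsm4 and Lsm6, which bind RNA ends in decay and splicing, had a median sAg3 shift of 0.32 dormant and 0.29 activated. The 4 on other chromosomes had -0.35 and -0.47, and the 2 sets did not overlap in either state. Of these partners, Lsm3, Lsm5 and Lsm8 all lie on chromosome 6, whose sAg3 median was -0.131 dormant and -0.171 activated. For the CCR4-NOT deadenylase, Cnot1 and Cnot7 had a median of 0.29 and 0.14 and the 9 others -0.27 and -0.30, again with no overlap. For the anaphase promoting complex, Cdc16 was at 0.54 and 0.50 and the 10 others had medians of -0.12 and -0.14, none above 0.31. For the vacuolar ATPase, Atp6v1b2 and Atp6v0d1 had 0.71 and 0.70 against 0.20 and 0.18 in 11 others, which reached 1.73. Of the proteasome, Psmb10 and Psmd7 had 0.54 and 0.45 against 0.06 and -0.18 in 32 others, but activated Psmd7 (-0.06) lay among them. The pre-replication genes on chromosome 8 had 0.21 and 0.14 (5 genes) against -0.43 and -0.59 (10 genes), with Cdt1 below the partners when dormant. Among the partners, Cnot9, Cnot11, Mcm3, Mcm6 and Orc2 lie on chromosome 1, which was low in sAg3 as a whole (-0.263 and -0.283). The part of such low chromosomes in these gaps was not tested.

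In 3 families of transcription factors the chromosome 8 members also had the higher median, but the sets overlapped in at least 1 state for 2 of them. Cbfb was at 0.40 and 0.61, above its partners Runx3 (0.14 and 0.40) and Runx1 (-1.35 and -0.92). E2f4, Tfdp1 and Rbl2 had 0.49 and 0.20 against -0.16 and -0.06 in 4 other E2F and pocket proteins, and Nfat5 and Nfatc3 had 0.17 and 0.12 against -0.17 and -0.67 in Nfatc1 and Nfatc2.

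The remaining 3 lists were mixed. The chromosome 8 tRNA synthetases Kars and Farsa had a dormant median of 0.24, below the 0.40 of 16 others, and 0.22 against -0.17 when activated. Il12rb1 and Il27ra had -0.03 and -0.28 beside 8 Janus kinases and shared receptor chains at 0.04 and -0.01. Junb and Jund were at 1.16 dormant beside Jun at 0.48, and at 0.05 activated beside 0.27. With so few subunits per complex these are counts and medians, and nothing is tested.

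**Figure D5:**
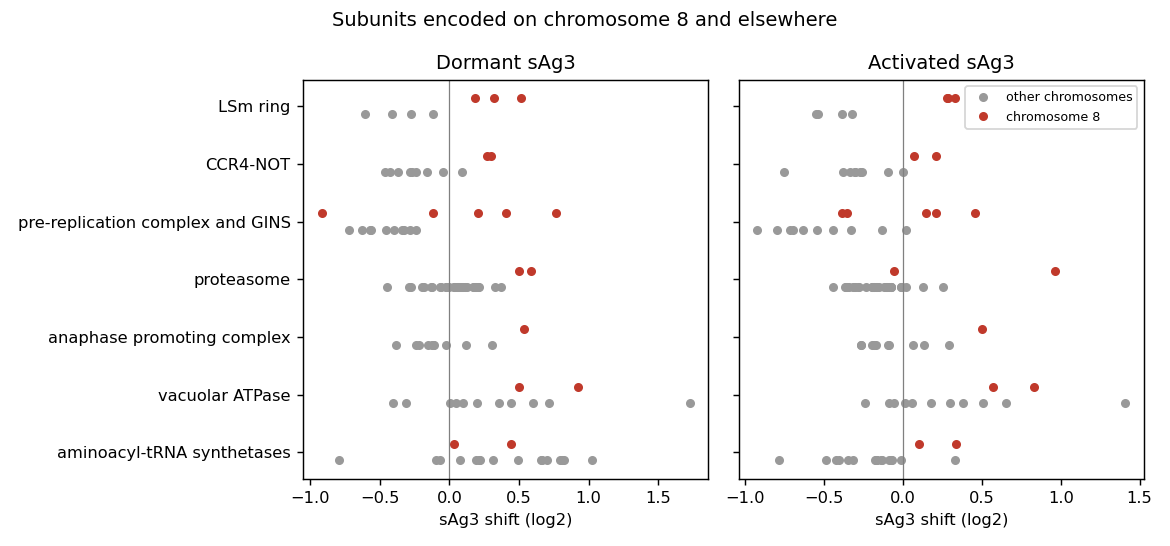
Shift of sAg3 on the log2 scale (horizontal axis) of subunits of 7 complexes or enzyme families (vertical axis), dormant left and activated right; each point is 1 gene, red for chromosome 8 and grey for other chromosomes. The LSm ring and CCR4-NOT subunits encoded on chromosome 8 lie to the right of all their partners in both states, and the tRNA synthetases are mixed.

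Activation is a comparison within each clone that did not choose the genes. With limma's moderated test over 23410 probe sets and Benjamini-Hochberg adjusted p under 0.05, 121 of the 398 genes rose and 110 fell in sAg3, where 59.0% of all probe sets rose and 14.1% fell. Among the 8576 probe sets with a mean above 8, tested alone, 2367 rose and 2587 fell, so the excess of rising probe sets lay among the dim ones. The median activation effect over all probe sets was 0.33 in sAg3 and 0.36 to 0.38 in the others, and it was between -0.08 and -0.01 after centring each array on its median. After that centring 23 of the 398 rose and 266 fell in sAg3 (5.78% and 66.8%, against 5.80% and 65.8% of bright genes on other chromosomes), so the split between rising and falling depends on the scaling. The fairer background is the 6708 bright genes on other chromosomes, of which 30.3% rose and 27.9% fell, against 30.4% and 27.6% of the 398. As a group the chromosome 8 genes thus moved like other bright genes.

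In sAg1, 174 rose and 112 fell (62.0% and 17.6% of all probe sets), in 8uvmo-2 180 and 128 (63.2% and 19.3%), in 8uvmo-3 160 and 127 (62.2% and 19.2%) and in CD8bm1 148 and 136 (61.4% and 18.0%). Set beside bright genes on other chromosomes, 43.7% of the 398 rose and 28.1% fell in sAg1, against 40.8% and 33.6%. The shares were 45.2% and 32.2% against 39.5% and 37.0% in 8uvmo-2, 40.2% and 31.9% against 38.1% and 36.6% in 8uvmo-3, and 37.2% and 34.2% against 35.2% and 34.5% in CD8bm1. On centred arrays 71 rose and 209 fell in sAg1 (17.8% and 52.5%, against 17.8% and 57.6% of the other bright genes) and 82 and 219 in 8uvmo-2 (20.6% and 55.0%, against 18.4% and 61.2%). In 8uvmo-3 they were 62 and 238 (15.6% and 59.8%, against 16.6% and 61.0%), and in CD8bm1 39 and 255 (9.80% and 64.1%, against 10.9% and 65.8%). The median activation effect of the 398 genes was 0.01 in sAg3 and 0.02 to 0.14 in the other 4 clones, on the deposited scale.

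The genes that rose most in sAg3 were Cotl1, an actin-binding coactosin (log2 change 1.93 ± 0.15 SE, adjusted p = 1.03e-12), Irf8 (1.38 ± 0.15), Zswim4 (1.33 ± 0.11) and the 5S ribosomal RNA gene n-R5s136 (1.23 ± 0.35, limma adjusted p = 0.00229), a member of a multi-copy family that probes cannot separate. Cotl1 went from 8.16, 8.10 and 8.08 to 9.85, 10.25, 10.06 and 10.00. Those that fell most were Enpp6 (-1.45 ± 0.16), the hypoxia-induced Ankrd37 (-1.35 ± 0.44, limma adjusted p = 0.00673), Hmgb2 (-1.19 ± 0.28, adjusted p = 0.000341) and the pyruvate dehydrogenase phosphatase regulator Pdpr (-1.18 ± 0.09). Hmgb2, which is abundant in cycling cells, went from 11.19, 10.62 and 10.55 to 10.01, 9.61, 9.29 and 9.47, and it fell in all 5 clones. Irf8 and Zswim4 rose in all 5. Pdpr fell in all 5. On centred arrays Irf8 rose by 0.97 and Zswim4 by 0.92, and all 8 genes kept their direction and call.

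Whether activation differed in sAg3 was tested as its effect minus the mean effect of the other 4 clones, in the same limma fit. This difference is built from the same arrays as the shifts in both states, though no gene was chosen on it. Of the 398 genes 53 were higher (10.5% of all probe sets) and 77 lower (9.96%), and of bright genes on other chromosomes 17.4% were higher and 18.4% lower, against 13.3% and 19.3% of the 398. On the higher side were Cotl1 (1.29 ± 0.16 SE, adjusted p = 2.61e-07), the dystrophin-associated syntrophin Sntb2 (1.06 ± 0.12), the lysosomal acetyltransferase Hgsnat (0.99 ± 0.13) and Rbl2 (0.81 ± 0.12). Sntb2, Hgsnat and Rbl2 fell in the other 4 clones and did not pass the test in sAg3, with changes of -0.07, 0.12 and -0.23. On centred arrays all 3 fell in sAg3 as well (-0.48, -0.29 and -0.64), and after quantile normalization Hgsnat in CD8bm1 lost its call (limma adjusted p = 0.115).

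Lower were Enpp6 (-2.17 ± 0.18 SE, adjusted p = 2.86e-11), Irf8 (-2.06 ± 0.17), Slc7a5 (-1.76 ± 0.23) and the kainate receptor auxiliary protein Neto2 (-1.54 ± 0.42, adjusted p = 0.00613). Enpp6 fell in sAg3 and rose in the other 4 clones, though on centred arrays 8uvmo-2 (-0.01) and CD8bm1 (0.08) lost that call, and 8uvmo-2 lost it after quantile normalization (0.26). Irf8 rose by 1.38 in sAg3 and by 3.10 to 3.81 elsewhere, from the higher dormant level given above. Slc7a5, the large neutral amino acid transporter of activated T cells, was at 12.40, 12.54 and 12.22 in dormant sAg3 and at 11.96, 11.59, 11.87 and 11.79 after activation (-0.58 ± 0.20 SE, limma adjusted p = 0.0112). It rose by 1.73 and 2.11 in 8uvmo-2 and 8uvmo-3, by 0.75 in sAg1, and by 0.11 in CD8bm1, where the call was not made (limma adjusted p = 0.607). On centred arrays sAg1 lost its call too (0.34, limma adjusted p = 0.166). Dormant CD8bm1, at 11.56 to 12.32, overlapped sAg3 in its Slc7a5 level. Neto2 in dormant 8uvmo-2 split into arrays at 10.01 and 9.79 and arrays at 7.70 and 7.93, so its difference includes a group that was uneven before activation. This group also held the lowest correlation between arrays of any group (0.986). With its replicates 1 and 3 left out, the difference was called for 152 of the 398 genes, where the main fit called 130. It was then -1.805 for Neto2 and -1.90 for Slc7a5. Jund (-0.97 ± 0.11, adjusted p = 3.14e-08) and Junb (-1.16 ± 0.22, adjusted p = 0.000155) were lower too. Both fell in sAg3, by 0.53 and 0.48, and Junb did not pass the test there after quantile normalization (limma adjusted p = 0.0781).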

How the data were processed

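RNA of 38 samples was hybridised to Affymetrix arrays, and the deposited values are log2 levels per probe set. Partek and RMA (robust multi-array averaging) stand in the submitters' processing notes, without versions, and the sources used here do not give their settings. The table holds 35556 probe sets with values from 1.81 to 14.76. The platform annotation names a gene for 23410, which were tested, and 21789 of them carry 1 symbol. Gene names, chromosomes and gene order came from the RefSeq GRCm38.p6 table, matched by gene number (21698 probe sets), and only the order is used because probe positions were not matched to that build.

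Groups came from the labels. Shifts are differences of clone means on the log2 scale. Activation was tested with limma 3.58.1 (R 4.3.3): 1 mean per group, all 10 groups in the fit, moderated variance with a trend, two-sided, Benjamini-Hochberg adjustment over all 23410. The procedure was tested on simulated data. Errors are SD over arrays or SE of a contrast. Arrays have no read depth, so their number limits precision.

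The genes and lists were chosen with earlier results of these data known. Named genes were the 10 largest and 6 smallest sAg3 shifts averaged over both states, the 5 brightest of each role list, subunits of the complex lists, the 4 largest called changes per direction in each test of sAg3, and 3 genes on each side of the brightness minimum. Further genes from the 70 that stood above all other arrays, and the single members below 0, were picked out by their values. The alternatives changed the reference, the brightness minimum, centring, quantile normalization, the variance model, left-out arrays and clones, and a replicate block. Replicate numbers do not state a pairing. The correlation of deviations from the group means in 18 pairs of equal clone and number ran from -0.236 to 0.268, and 7 were above 0.1.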

Additional observations from a re-analysis of the deposited data

Results flagged for a closer look

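Among 112 groups of 4 arrays examined (the chromosome 8 median and 13 genes), 9 had 1 array far from the other 3, where chance gives about 1 in 20. In activated 8uvmo-2, Itgb1 reached 8.35 on 1 array with the other 3 at 6.26 to 6.55. Arhgef7 had such an array at 8.00 in dormant CD8bm1, at 9.38 in activated 8uvmo-2 and at 9.09 in activated 8uvmo-3. Single arrays also stood apart for Man2b1 in activated sAg1 (9.72), Tnfsf13b in dormant 8uvmo-2 (9.05), Plcg2 in activated sAg1 (8.27), Irf8 in dormant CD8bm1 (7.33) and Mt2 in dormant CD8bm1 (13.57). None of the 9 was an activated sAg3 array, and no group examined stood out in the median over the 398 genes. Dormant sAg1 and dormant sAg3, with 3 arrays each, were outside this check, so it says nothing about their arrays.

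The activation effect of sAg3 differed from the mean of the other 4 clones, in limma's test of that difference, for Cotl1 (1.29), Sntb2 (1.06), Hgsnat (0.99) and Rbl2 (0.81) on the higher side. On the lower side stood Enpp6 (-2.17), Irf8 (-2.06), Slc7a5 (-1.76) and Neto2 (-1.54).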

How the results depend on the processing

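The sAg3 shift of chromosome 8 stayed above 0 under all 17 alternatives run in each state, between 0.27 and 0.39 dormant and between 0.21 and 0.35 activated. Values that moved by at least the SD between arrays were, dormant and activated, 0.27 and 0.21 with a brightness minimum of 7, 0.38 and 0.31 with a minimum of 9, 0.39 and 0.34 after quantile normalization, and 0.37 and 0.27 without 8uvmo-3 in the reference. Only the activated value moved with the mean of the other clones as reference (0.27), centred arrays (0.22), all single-gene probe sets (0.27), and without sAg1 (0.28), 8uvmo-2 (0.24) or CD8bm1 (0.23) in the reference. Relative to the other chromosomes, an alternative chosen after seeing the data, the shifts were 0.39 and 0.35. Leaving out single sAg3 arrays gave 0.31 to 0.36 dormant and 0.25 to 0.26 activated. Counts of called genes, both directions together, stayed within 1.5 times the main count in all alternatives run: 205 to 289 for activation in sAg3 (231) and 112 to 152 for the difference (130). The directions did not stay: 121 rising and 110 falling genes in sAg3 became 23 and 266 on centred arrays, the setting that gave 289. All 16 named activation values kept direction and call in 200 of 200 refits. As they were chosen as the largest called values on these same arrays, that outcome was likely from the start. The replicate block, whose numbers are not known to pair arrays, gave 219 genes for activation in sAg3 and 117 for the difference. Shifts of dim genes are limited by signal over background, which was not measured.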
